A study of Danio rerio with 16 samples.

Results

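Translation factor genes were followed in whole zebrafish embryos whose protein synthesis was blocked with cycloheximide. All genes were taken whose symbol in the platform's probe annotation begins with eif or eef and a digit, which gave 63 of the 9238 genes with a symbol and 97 of the 21495 probes tested. Each gene was read from its brightest probe, and no measured difference was used to choose them. By role they comprised 11 initiation factors of the small subunit and start codon, 4 subunits of eIF2B, 1 kinase of eIF2alpha, 11 genes of the eIF3 complex, 13 cap-binding and eIF4F genes, 5 eIF4E-binding repressors, 2 eIF5A genes, 13 elongation factors, and 3 genes for the eEF2 kinase and elongation factor methyltransferases.

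The 16 samples in 5 groups came from Agilent arrays of 2 colours, each dye channel carrying its own sample. Per the labels, every sample pooled 60 to 100 embryos bathed from 1.5 hours post fertilization (hpf) in 15 µg/ml cycloheximide and collected frozen at 4.7 hpf. The groups were uninjected wild type embryos (WT, 3 samples), uninjected embryos that lack maternal and zygotic Pou5f1 through the spg allele m793 (MZ, 3 samples), MZ embryos given 100 pg of Pou5f1 mRNA (MZ_Pou5f1, 3 samples), and wild type or MZ embryos given 50 pg of Sox2 mRNA (WT_Sox2, 3 samples, and MZ_Sox2, 4 samples). All groups carried cycloheximide, so no comparison shows the effect of the drug.

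Translation begins when eIF2 brings the initiator tRNA to the small ribosomal subunit, which eIF3 prepares and eIF4F recruits to the capped mRNA. eIF5B then joins the large subunit, eEF1A delivers each aminoacyl-tRNA, eEF1B recharges eEF1A with GTP, and eEF2 moves the ribosome on by a codon. Cycloheximide stops this last step. Early fish embryos run on translation factor mRNAs and proteins loaded into the egg, and the 4E-binding proteins, eIF2alpha kinases and the eEF2 kinase act as brakes on the machinery.

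The samples did not sort by their labels in these genes. Over the 63 genes, 6 of the 16 samples had a sample of their own labelled group as their nearest neighbour by Spearman correlation, and over the 7668 probes with a mean log2 intensity of at least 8 the number was also 6. The nearest neighbour lay on the same slide for 5 samples and carried the same dye for 10. WT replicates 1 and 2 correlated at 0.997 over the 63 genes, whereas WT replicate 3 averaged 0.905 with its labelled group and was nearest to MZ replicate 1 at 0.95. MZ replicate 3 was nearest to MZ_Sox2 replicate 3 at 0.995, MZ_Pou5f1 replicate 3 to WT replicate 2 at 0.993, and WT_Sox2 replicate 3 to MZ_Pou5f1 replicate 1 at 0.994. Group names below therefore mean the samples that carry those labels, and results are also given without the library least like its own group in each group.

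Background readings differed too. The dark control feature read between 6.85 and 9.87 in 13 samples, but 12.57 in MZ replicate 2, 52.76 in WT replicate 3 and 132.7 in MZ replicate 1. Of the 63 genes, 52 lay above that feature in all 16 samples and 50 had a mean log2 intensity of at least 8. The pou5f3 probe ranged from 14.68 to 15.92 in MZ and from 14.17 to 15.01 in WT, and sox2 from 4.23 to 5.24 in WT_Sox2 against 6.75 to 8.30 in WT, all as log2 intensity. Neither probe checks the labels, because the labels do not place it against the m793 lesion or the injected mRNAs. The log2 of the summed intensities of the blastoderm markers was 14.62 to 16.63 in WT and 16.67 to 16.73 in MZ. That list holds pou5f3 itself, its brightest gene at a mean of 14.85, so this sum does not measure blastoderm content. Among lists for tissues that a late blastula lacks, muscle gave 6.25 to 6.93 in WT and 5.76 to 10.54 in MZ, and neuron 8.44 to 9.41 and 8.03 to 9.66. Oocyte transcripts gave 13.30 to 13.45 in WT, 13.69 to 14.16 in MZ and 13.47 to 14.66 in MZ_Pou5f1. They gave 13.95 to 14.35 in WT_Sox2 and 13.61 to 14.33 in MZ_Sox2, so WT lay below all other groups. Enveloping layer, yolk syncytial layer and germ plasm lists overlapped between WT and every other group. Whether egg-loaded RNA has a part in the differences below was not tested. In pooled whole embryos, fewer cells of a type and less RNA per cell cannot be told apart.

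**Figure D1:**
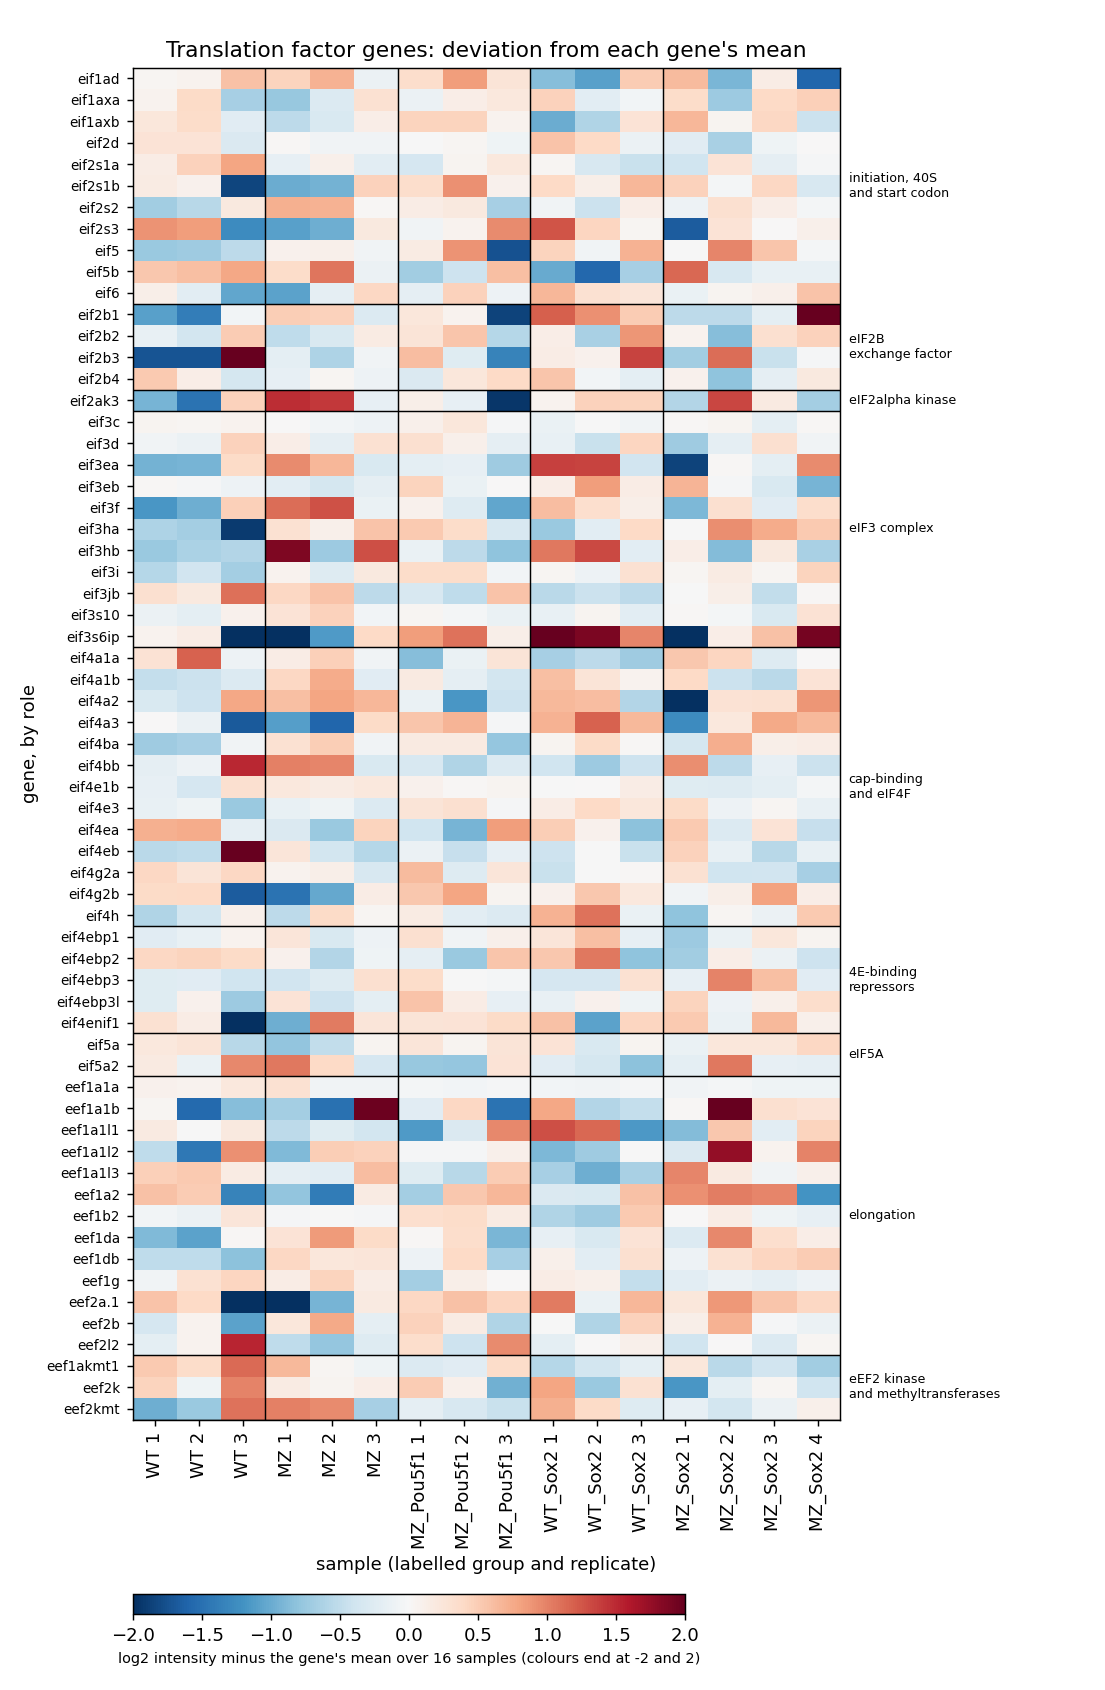
Each cell shows the log2 intensity of 1 of the 63 genes in 1 of the 16 samples minus that gene's mean over the 16 samples, on a colour scale that ends at -2 and 2, with genes in rows by role and samples in columns by labelled group. WT replicate 3 resembles MZ replicates 1 and 2 in many rows and departs from WT replicates 1 and 2, while eif3c and eef1a1a are nearly even across all columns. WT replicate 3 and MZ replicates 1 and 2 are on slide 2 and have the highest dark controls of the series. WT replicate 2 is also on slide 2, on the same array as MZ replicate 1. Its dark control is not raised, and its nearest sample is WT replicate 1, on slide 1.

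As a group the translation factor genes varied about as much as other genes of similar brightness. The median standard deviation over the 16 samples was 0.50 (log2) for the 50 members with a mean log2 intensity of at least 8, beside 0.51 for the 4949 named genes of that brightness. Within labelled groups it was 0.43 for those members and 0.47 for those genes. The median deviation of the 63 members from their own means lay between -0.09 in WT replicate 2 and 0.11 in WT_Sox2 replicate 1, so no sample held the whole set high or low.

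The most even bright member was eif3c, a core scaffold subunit of eIF3, which spanned 0.43 over all 16 samples. Also even were eif4e1b, an egg and early embryo form of the cap-binding protein, with a standard deviation of 0.19, and the eIF3 subunit gene eif3s10, with 0.21. At the other end, among members above the dark control in all 16 samples, eif2b3 spanned 5.51 and eif4eb spanned 4.32 on the log2 scale. In both genes 1 sample set the range. The eif2b3 probe read 14.16 in WT replicate 3 and 8.64 to 11.73 in the other 15 samples, and eif4eb read 14.89 in WT replicate 3 and 10.58 to 11.60 elsewhere.

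WT replicate 3 held the highest or lowest of the 16 values for 23 of the 63 genes, 11 highest and 12 lowest. MZ_Sox2 replicate 2 came next with 13 genes, and MZ replicate 3 had 1. Whether background or RNA quality has a part in this was not tested, and the dark control of WT replicate 3 was the second highest of the series. MZ replicate 1, with the highest dark control, was extreme for 8 genes.

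**Figure D2:**
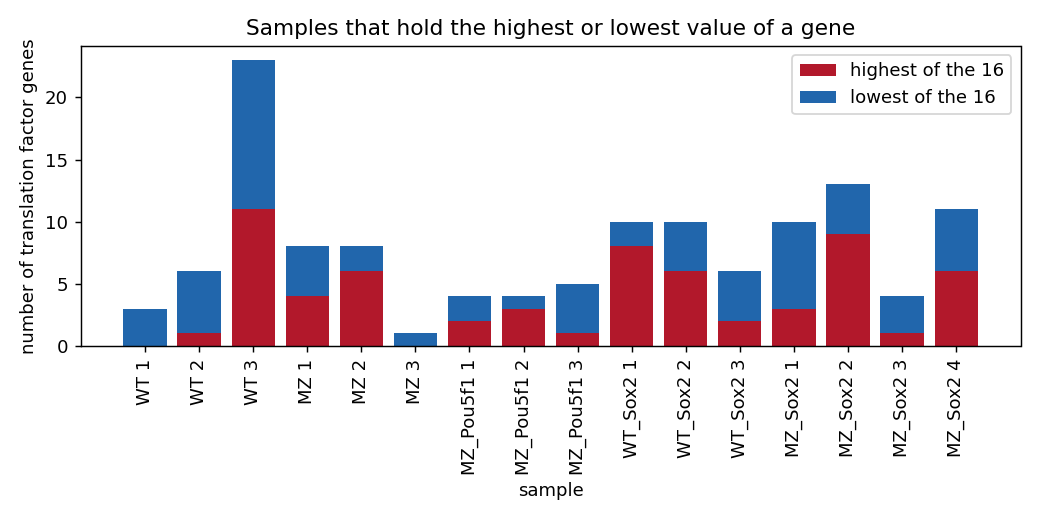
Bars count, for each of the 16 samples, the translation factor genes for which that sample had the highest (red) or lowest (blue) log2 intensity of all 16. WT replicate 3 stands above the rest with 23 of the 63 genes, and MZ replicate 3 has 1.

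No translation factor gene passed the threshold of adjusted p 0.05 in any of the 8 contrasts or in the F test over the 5 groups (limma, two-sided, Benjamini-Hochberg over all 21495 probes). The whole array gave few calls as well. Of all probes, 0.00465% passed in MZ against WT, 0.0977% in WT_Sox2 against WT and 0.0186% in MZ_Sox2 against WT_Sox2. The share was 0% for MZ_Pou5f1 against MZ, MZ_Sox2 against MZ, MZ_Pou5f1 against WT, MZ_Pou5f1 against MZ_Sox2, the difference between the Sox2 effects in MZ and WT, and the F test.

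At an unadjusted p under 0.05, 6 of the 63 members passed the F test, beside 10.1% of all probes. In MZ against WT, 9 members were higher and 2 lower, beside 5.54% and 6.63% of all probes. In MZ_Pou5f1 against MZ, 1 member was higher and 3 were lower, beside 6.68% and 5.48%. In WT_Sox2 against WT the numbers were 9 and 7, beside 8.34% and 6.15%. MZ_Sox2 against MZ gave 0 higher and 2 lower (2.31% and 2.51% of all probes), and MZ_Sox2 against WT_Sox2 gave 3 and 1 (3.48% and 4.08%). MZ_Pou5f1 against WT gave 2 and 2 (4.14% and 3.11%), and MZ_Pou5f1 against MZ_Sox2 gave 0 and 0 (0.87% and 1.25%). The difference between the Sox2 effects gave 3 positive and 5 negative members (4.6% and 4.49%). Of the 50 members with a mean log2 intensity of at least 8, 14% were higher and 2% lower in MZ against WT. The shares were 7.42% and 7.8% of the 4949 named genes of that brightness. In WT_Sox2 against WT they were 10% and 14% of these members, beside 9.23% and 7.4% of these genes.

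Counts of members whose groups did not overlap were read against the same background. All MZ samples lay above all WT samples for 6 members and below them for 7, beside 5.23% and 7.96% of all probes. In MZ_Pou5f1 against MZ, 5 members separated upward and 3 downward, beside 10.4% and 6.51%. WT_Sox2 and WT separated in 12 members upward and 11 downward, beside 12% and 15.3%. The counts were 1 and 3 in MZ_Sox2 against MZ (2.11% and 2.09%), 4 and 1 in MZ_Sox2 against WT_Sox2 (4.89% and 5.37%), 4 and 3 in MZ_Pou5f1 against WT (6.66% and 8.84%), and 2 and 0 in MZ_Pou5f1 against MZ_Sox2 (3.13% and 2.15%). Shares were larger among the 4949 named genes with a mean log2 intensity of at least 8 for MZ against WT, at 9.07% and 9.76%. Of the 50 members of that brightness, 12% separated upward and 12% downward. In WT_Sox2 against WT 18% and 20% of these members separated, beside 14.9% and 12.6% of these genes.

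Signs of the fitted differences were also counted. They were positive for 32 members in MZ against WT (47.4% of all probes), 30 in MZ_Pou5f1 against MZ (53.6%), 32 in MZ_Sox2 against MZ (53.4%) and 39 in WT_Sox2 against WT (45.2%). They were positive for 29 in MZ_Sox2 against WT_Sox2 (49.6%), 41 in MZ_Pou5f1 against WT (47.4%), 32 in MZ_Pou5f1 against MZ_Sox2 (53.2%) and 26 for the difference between the Sox2 effects (52.5%). Medians of the fitted log2 difference were near 0: 0.01 for MZ against WT, 0.00 for MZ_Pou5f1 against MZ and 0.01 for MZ_Sox2 against MZ, beside all-probe medians of -0.04, 0.06 and 0.04. The 2 largest positive medians were 0.20 for WT_Sox2 against WT and 0.18 for MZ_Pou5f1 against WT, beside -0.06 and -0.04 for all probes. The median difference between the Sox2 effects was -0.20, beside 0.05. These comparisons share control samples. With a mean log2 intensity of at least 8, 60% of 50 members were positive in WT_Sox2 against WT and 62% in MZ_Pou5f1 against WT. Named genes of that brightness gave 53.3% and 50.5%. For the difference between the Sox2 effects the shares were 42% of these members and 48.1% of these genes.

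**Figure D3:**
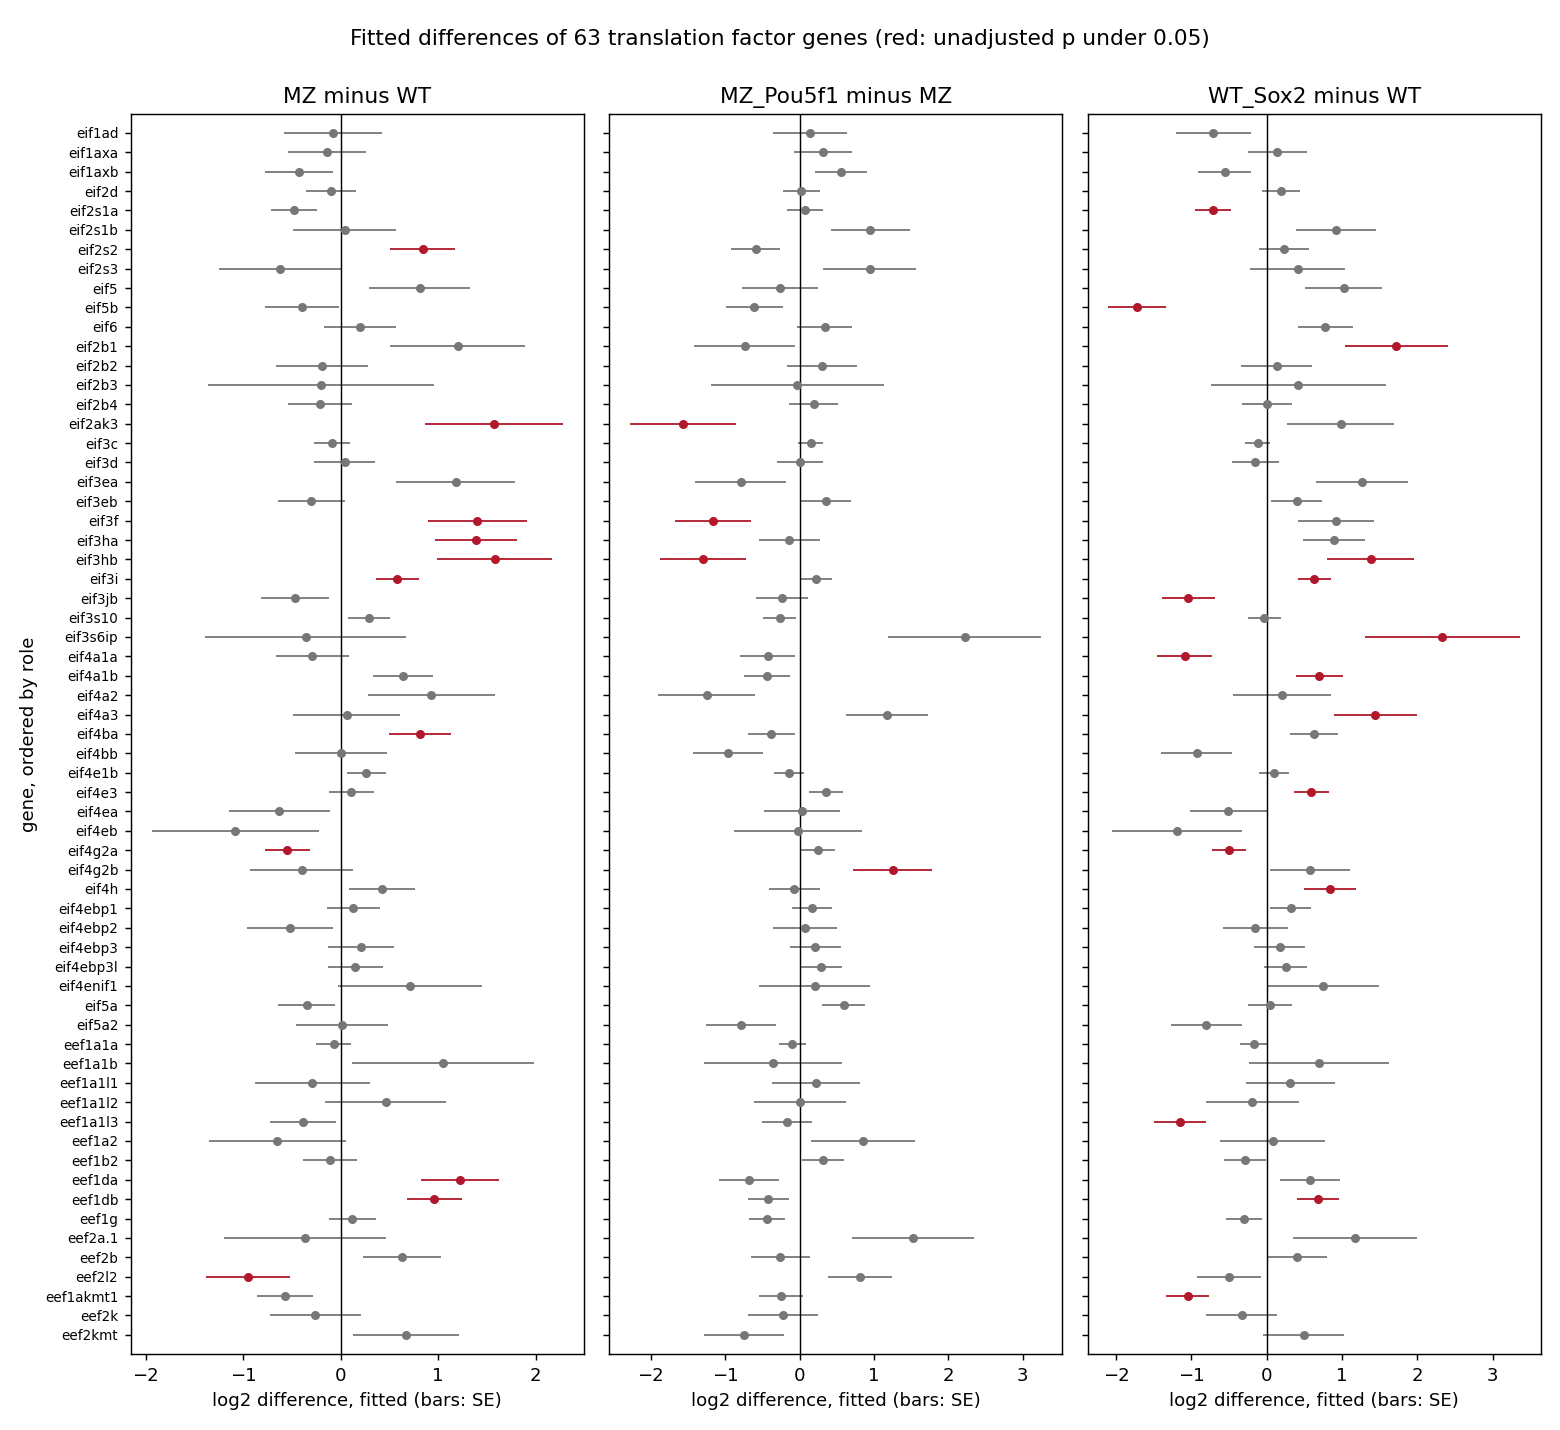
Points give the fitted log2 difference of each of the 63 genes and bars its standard error, in 3 panels for MZ minus WT, MZ_Pou5f1 minus MZ and WT_Sox2 minus WT, with genes ordered by role. Red marks an unadjusted p under 0.05, which 11, 4 and 16 genes reached, and none of them passed after adjustment over all probes.

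Among the initiation factors of the small subunit and start codon, eif5b had the largest F statistic of all 63 genes. It encodes the GTPase that joins the ribosomal subunits. Its log2 intensity was 15.12, 15.19 and 15.37 in WT, 14.96, 15.66 and 14.47 in MZ, and 13.90, 14.17 and 15.19 in MZ_Pou5f1. It was 13.57, 13.01 and 13.93 in WT_Sox2 and 15.73, 14.27, 14.44 and 14.44 in MZ_Sox2. The WT_Sox2 samples were the lowest of any group apart from MZ_Pou5f1 replicate 1 and overlapped neither WT nor MZ_Sox2. The difference was -1.72 (SE 0.38) for WT_Sox2 against WT, with an adjusted p of 0.0912 (limma), and 1.27 (SE 0.35) for MZ_Sox2 against WT_Sox2, with an adjusted p of 0.394. The Sox2 effect differed between MZ and WT by 1.67 (SE 0.52, adjusted p = 0.432, limma). No slide held both WT_Sox2 and WT, so slide and group cannot be told apart in that comparison. The same holds for MZ_Sox2 against MZ and for MZ_Pou5f1 against MZ_Sox2. The difference between the Sox2 effects could be fitted with slide as a fixed block, where eif5b gave 2.28. On the slide with both Sox2-injected groups MZ_Sox2 replicate 1 exceeded the WT_Sox2 mean by 2.23. It was the only MZ_Sox2 sample on that slide and the highest of its group, so the values that account for slide rest on it. With this sample left out, the fitted difference of MZ_Sox2 from WT_Sox2 was 1.02.

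Other members of this role gave both separate and overlapping groups. The gene eif5, for the factor that triggers GTP hydrolysis by eIF2, and eif2s1a, for the alpha subunit of eIF2, are named here after their values were seen. The former read 11.37, 11.40 and 11.58 in WT, 12.19, 12.22 and 12.04 in MZ, 12.27, 13.01 and 10.37 in MZ_Pou5f1, 12.56, 12.04 and 12.81 in WT_Sox2, and 12.10, 13.09, 12.67 and 12.07 in MZ_Sox2. All WT samples lay below all MZ, WT_Sox2 and MZ_Sox2 samples, with a difference of 0.81 (SE 0.52, adjusted p = 0.522) in MZ against WT and 1.02 (SE 0.51, adjusted p = 0.392) in WT_Sox2 against WT (limma). For eif2s1a, WT read 14.14, 14.45 and 14.77, MZ 13.82, 14.08 and 13.77, and WT_Sox2 14.02, 13.67 and 13.54. WT lay above both, by a difference of -0.48 for MZ (SE 0.24, adjusted p = 0.441) and -0.71 for WT_Sox2 (SE 0.24, adjusted p = 0.212, limma). The gene eif6, whose product keeps the large subunit from joining early, read 14.37, 14.04 and 13.22 in WT and 13.19, 14.08 and 14.67 in MZ, and the groups overlapped. The scanning factor gene eif1axa read 14.07, 14.40 and 13.34 in WT and 13.26, 13.73 and 14.31 in MZ, again overlapping. For eif2d, which can deliver initiator tRNA without eIF2, WT_Sox2 read 11.54, 11.37 and 10.85 and MZ_Sox2 10.75, 10.32, 10.89 and 10.99. The 2 groups overlapped, with a difference of -0.52 (SE 0.24, adjusted p = 0.659, limma). Over all 11 members, 4 had positive differences in MZ against WT and 8 in MZ_Pou5f1 against MZ.

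The gene eif2ak3, which encodes PERK, the kinase that phosphorylates eIF2alpha when proteins misfold in the endoplasmic reticulum, was the kinase gene measured. It read 5.90, 5.35 and 7.28 in WT, 8.30, 8.23 and 6.66 in MZ, and 6.94, 6.66 and 4.87 in MZ_Pou5f1. MZ replicates 1 and 2 stood above every WT and MZ_Pou5f1 sample, while MZ replicate 3 lay within their range. The difference was 1.57 (SE 0.71, adjusted p = 0.407) in MZ against WT and -1.57 (SE 0.71, adjusted p = 0.409) in MZ_Pou5f1 against MZ (limma). Within slide 1 the MZ sample exceeded the WT sample by 0.76, and within slide 2 the MZ mean exceeded the WT mean by 1.95.

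eIF2B, the target of that kinase's brake, exchanges GDP for GTP on eIF2. Its gene eif2b4 read 13.31, 12.93 and 12.44 in WT, 12.62, 12.83 and 12.68 in MZ, 12.49, 13.01 and 13.18 in MZ_Pou5f1, 13.34, 12.73 and 12.60 in WT_Sox2, and 12.87, 11.99, 12.61 and 12.98 in MZ_Sox2. All groups overlapped. For eif2b3 the WT samples read 8.65, 8.64 and 14.16, which placed both the lowest and the highest of its 16 values in that group, and its F statistic ranked last of the 63. The subunit gene eif2b2 read 8.44, 8.21 and 9.10 in WT and 8.08, 8.29 and 8.75 in MZ, with overlap. Of the 4 subunit genes, 1 had a positive difference in MZ against WT and 3 in WT_Sox2 against WT.

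In the eIF3 complex 3 genes ranked among the 8 largest F statistics. The gene eif3i encodes a small peripheral subunit. It read 13.15, 13.35 and 13.05 in WT, 13.80, 13.47 and 13.93 in MZ, 14.10, 14.09 and 13.68 in MZ_Pou5f1, 13.78, 13.63 and 14.03 in WT_Sox2, and 13.77, 13.89, 13.77 and 14.18 in MZ_Sox2. Every WT sample lay below every sample of the other 4 groups. The difference was 0.58 (SE 0.22, adjusted p = 0.36) in MZ against WT, 0.63 (SE 0.22, adjusted p = 0.233) in WT_Sox2 against WT and 0.80 (SE 0.23, adjusted p = 0.648) in MZ_Pou5f1 against WT (limma). Those 3 values share the WT samples.

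The subunit gene eif3ha showed a like order. Its WT samples read 10.93, 10.88 and 9.64, MZ 11.86, 11.65 and 12.13, and MZ_Pou5f1 12.07, 11.93 and 11.23. WT_Sox2 read 10.82, 11.35 and 11.96, and MZ_Sox2 11.55, 12.48, 12.30 and 12.08. The WT samples were below all MZ, MZ_Pou5f1 and MZ_Sox2 samples and overlapped WT_Sox2. The difference in MZ against WT was 1.39 (SE 0.42, adjusted p = 0.31, limma), and within slides 1 and 2 it was 1.20 and 1.50. A second eif3ha probe gave 1.34.

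The third, eif3hb, a paralog of eif3ha, was dim. It read 3.03, 3.14 and 3.19 in WT, 5.65, 3.06 and 5.08 in MZ, and 4.84, 5.11 and 3.57 in WT_Sox2. MZ_Pou5f1 read 3.65, 3.26 and 2.98, and MZ_Sox2 3.91, 2.92, 3.97 and 3.14. It exceeded the dark control in 11 of 16 samples, and in MZ replicate 1 it did not, so its differences are not measured sizes. The Sox2 effect differed between MZ and WT by -2.63 (SE 0.81, adjusted p = 0.42, limma), and its other probe gave 0.42, with the opposite sign.

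For eif3f, which encodes a subunit of the eIF3 core octamer, the 3 WT samples read 11.11, 11.29 and 12.75, MZ 13.40, 13.55 and 12.14, and MZ_Pou5f1 12.37, 12.01 and 11.24. WT replicates 1 and 2 were low and MZ replicates 1 and 2 high, while the third sample of each group lay between them and in reverse order. The difference was 1.40 (SE 0.51, adjusted p = 0.356) in MZ against WT and -1.16 (SE 0.51, adjusted p = 0.409) in MZ_Pou5f1 against MZ (limma). The bright gene eif3ea read 12.93, 12.94 and 14.25 in WT, 14.80, 14.53 and 13.56 in MZ and 15.23, 15.21 and 13.48 in WT_Sox2, with replicate 3 apart from the other 2 in each of these groups. Its dimmer second probe gave -0.31 for MZ against WT, where the brightest gave 1.18. For WT_Sox2 against WT the 2 probes gave 0.55 and 1.27, and for the difference between the Sox2 effects -0.01 and -2.29. The scaffold gene eif3c stayed between 13.56 and 14 in all 16 samples.

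Counted over the complex, 7 of the 11 eIF3 genes had positive differences in MZ against WT, with a median of 0.29. At an unadjusted p under 0.05, 4 were higher, beside 5.54% of all probes. The dim eif3hb, whose differences are not measured sizes, was among these 4 and enters all counts and medians here. In MZ against WT the second probes of eif3hb and eif3ea had the opposite sign, -0.56 and -0.31. Those of eif3c, eif3d, eif3eb and eif3ha kept the sign. In MZ_Pou5f1 against WT, 10 of 11 were positive with a median of 0.24, and in WT_Sox2 against WT the median was 0.63. All-probe medians were -0.04, -0.04 and -0.06. The difference between the Sox2 effects was negative for 9 of the 11, with a median of -0.49 beside 0.05 over all probes. For that difference the second probes of eif3hb, eif3eb and eif3c had the opposite sign, at 0.42, 0.47 and -0.39. Those of eif3ha, eif3d and eif3ea kept the sign, at -0.83, -0.66 and -0.01. The count and median therefore depend on the probe read.

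**Figure D4:**
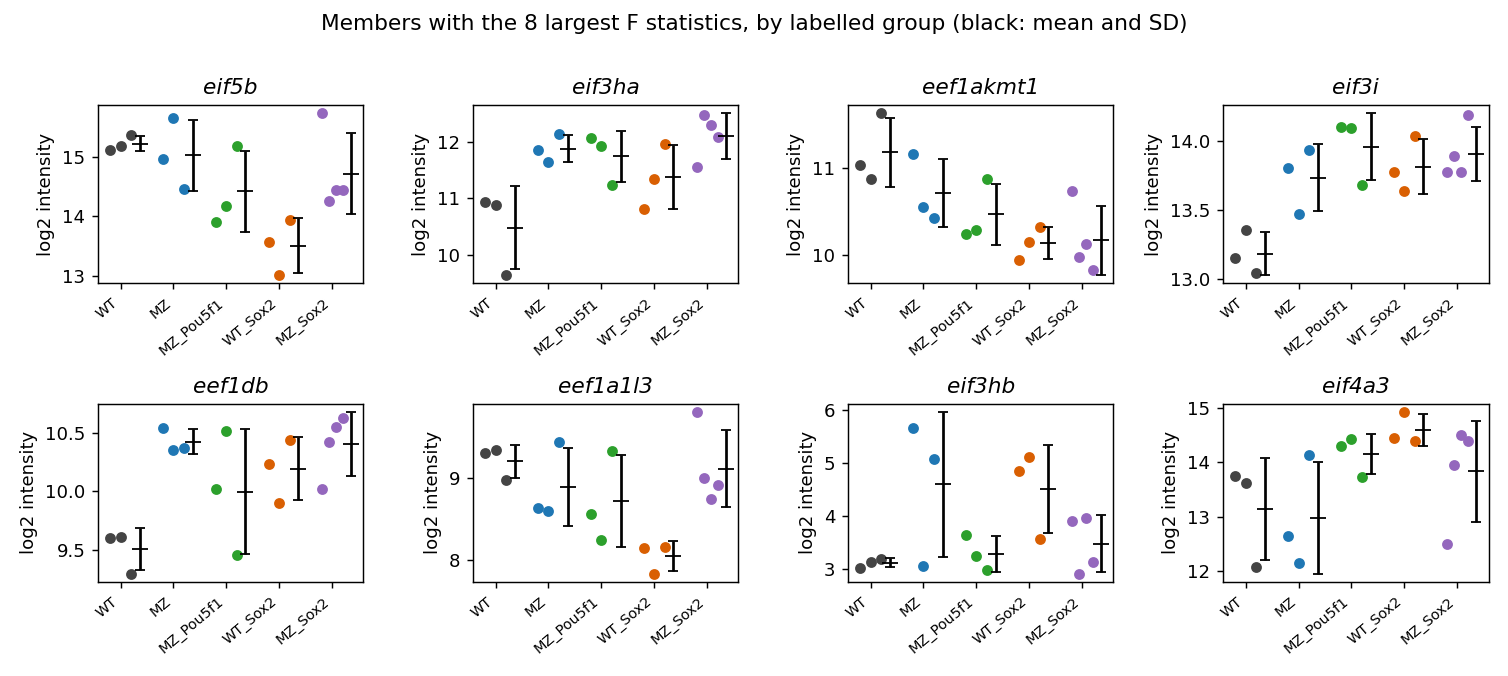
Coloured points show the log2 intensity of the 8 genes with the largest F statistics in each sample, by labelled group, and black marks the group mean and SD (n = 3, or 4 in MZ_Sox2). The 3 WT samples lie below all others for eif3i, and eif5b is lowest in the WT_Sox2 group.

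The cap-binding set holds the helicases, the cap receptors and the scaffold-related proteins. The helicase gene eif4a1a read 16.43, 17.32 and 16.05 in WT, 16.29, 16.63 and 16.08 in MZ, 15.29, 16 and 16.40 in MZ_Pou5f1, 15.48, 15.62 and 15.43 in WT_Sox2, and 16.69, 16.57, 15.88 and 16.16 in MZ_Sox2. WT_Sox2 lay below WT and below MZ_Sox2 without overlap, by -1.09 (SE 0.37, adjusted p = 0.217) and with MZ_Sox2 higher by 0.82 (SE 0.35, adjusted p = 0.609, limma). Its second probe gave -0.06 for WT_Sox2 against WT.

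The gene eif4a3 encodes the helicase that anchors the exon junction complex on spliced mRNA. It read 13.76, 13.63 and 12.07 in WT, 12.66, 12.16 and 14.13 in MZ, and 14.31, 14.42 and 13.73 in MZ_Pou5f1. WT_Sox2 read 14.45, 14.93 and 14.40, and MZ_Sox2 12.50, 13.96, 14.51 and 14.40. WT replicate 3 and MZ replicates 1 and 2 were together at the low end with MZ_Sox2 replicate 1. The F test gave an adjusted p of 0.524 (limma). For eif4bb, a helicase cofactor gene, the same 3 samples were high, at 15.12, 14.62 and 14.59, beside 13.44 and 13.51 in WT replicates 1 and 2 and 13.31 in MZ replicate 3, and MZ_Sox2 replicate 1 joined them at 14.55.

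Both genes for eIF4G2, a scaffold relative that supports initiation without eIF4E, were among the extremes of a contrast. The gene eif4g2a read 9.96, 9.80 and 9.96 in WT and 9.63, 9.67 and 9.24 in MZ, with no overlap, a difference of -0.55 (SE 0.23, adjusted p = 0.38, limma). Its values were 9.11, 9.54 and 9.58 in WT_Sox2, also below WT. The paralog eif4g2b read 7.97, 8.43 and 9.60 in MZ and 9.99, 10.24 and 9.50 in MZ_Pou5f1, a difference of 1.25 (SE 0.53, adjusted p = 0.409, limma). Those groups overlapped through MZ replicate 3. In WT the gene read 9.84, 9.84 and 7.79, so replicate 3 again stood with MZ replicates 1 and 2. A second probe of eif4g2b gave 1.72.

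The cap receptor eIF4E is encoded by several genes. The egg form eif4e1b read 11.78, 11.61 and 12.27 in WT, 12.15, 12.11 and 12.15 in MZ, 12.02, 11.97 and 12 in MZ_Pou5f1, 11.93, 11.95 and 12.08 in WT_Sox2, and 11.70, 11.68, 11.75 and 11.90 in MZ_Sox2. All MZ_Sox2 samples lay below all samples of MZ, MZ_Pou5f1 and WT_Sox2, and WT spanned them all. The gene eif4ea read 9.24, 9.27 and 8.34 in WT, 8.24, 7.78 and 8.98 in MZ, 8.14, 7.60 and 9.37 in MZ_Pou5f1, 9.02, 8.61 and 7.70 in WT_Sox2, and 9.05, 8.25, 8.81 and 8.07 in MZ_Sox2. Replicate 3 departed from the other samples in WT, MZ and MZ_Pou5f1. The spread of eif4eb came from WT replicate 3 at 14.89, and its second probe gave 0.02 for MZ against WT where the brightest gave -1.08.

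The 4E-binding proteins hold eIF4E away from the scaffold until mTOR phosphorylates them. The gene eif4ebp3l read 15.32, 15.65 and 14.85 in WT, 15.85, 15.16 and 15.38 in MZ, 16.14, 15.72 and 15.41 in MZ_Pou5f1, 15.42, 15.66 and 15.48 in WT_Sox2, and 16.02, 15.46, 15.66 and 15.92 in MZ_Sox2. All groups overlapped. The gene eif4ebp1 read 14.29, 14.36 and 14.58 in WT, 14.75, 14.21 and 14.41 in MZ, 14.82, 14.44 and 14.61 in MZ_Pou5f1, 14.74, 15.10 and 14.35 in WT_Sox2, and 13.78, 14.38, 14.73 and 14.56 in MZ_Sox2. It had the largest positive statistic of MZ_Pou5f1 against MZ_Sox2, a difference of 0.36 with overlapping groups, and the value turned to -0.04 when its 3 probes were averaged.

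Tighter within WT was eif4ebp2, at 13.73, 13.77 and 13.71, against 13.40, 12.73 and 13.23 in MZ, which lay below without overlap. Its MZ_Pou5f1 samples read 13.14, 12.57 and 13.86, its WT_Sox2 samples 13.86, 14.37 and 12.52, and its MZ_Sox2 samples 12.61, 13.45, 13.19 and 12.90. The gene eif4ebp3 read 9.87, 9.88 and 9.72 in WT, 9.73, 9.86 and 10.43 in MZ, 10.48, 10.10 and 10.08 in MZ_Pou5f1, 9.77, 9.78 and 10.42 in WT_Sox2, and 9.95, 11.10, 10.71 and 9.89 in MZ_Sox2. MZ_Pou5f1 and MZ_Sox2 lay above WT throughout. Of the 5 repressor genes, 4 had positive differences in MZ against WT and all 5 in MZ_Pou5f1 against MZ, where the median was 0.20 beside 0.06 for all probes, and none had an unadjusted p under 0.05 in either. In MZ_Pou5f1 against MZ the other eif4ebp1 probes gave -0.10 and -0.77, where the brightest gave 0.17. The second eif4ebp3l probe kept its sign, at 0.03.

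**Figure D5:**
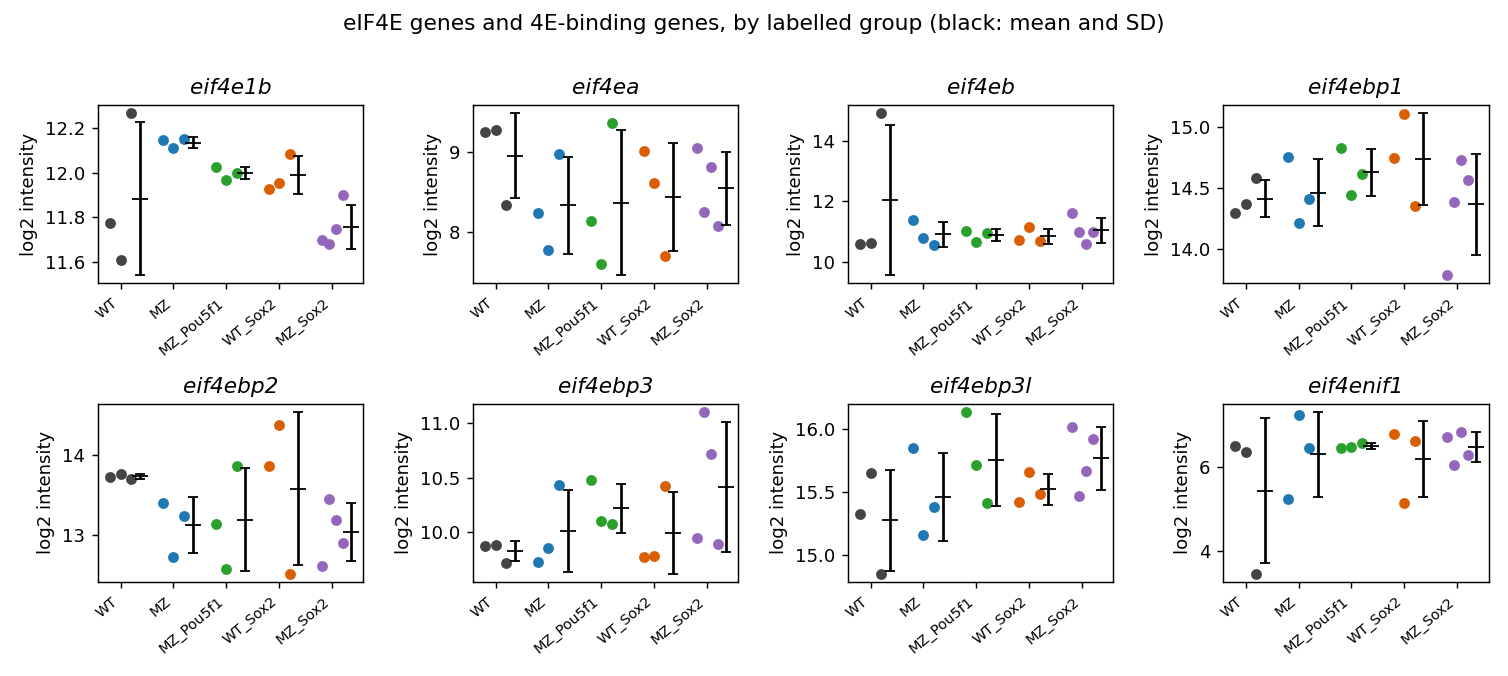
Points show the log2 intensity in each sample of 3 eIF4E genes and 5 genes for eIF4E-binding proteins, by labelled group, with the group mean and SD in black. The single WT point of eif4eb at 14.89 and that of eif4enif1 at 3.45 both belong to replicate 3, the latter below its dark control, and the groups overlap in most panels.

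eIF5A carries the amino acid hypusine and frees ribosomes that stall during elongation and termination. Its gene eif5a read 11.07, 11.13 and 10.32 in WT, 10.07, 10.38 and 10.91 in MZ, 11.11, 10.92 and 11.12 in MZ_Pou5f1, 11.15, 10.57 and 10.92 in WT_Sox2, and 10.73, 11.09, 11.09 and 11.29 in MZ_Sox2. Every MZ_Pou5f1 sample exceeded every MZ sample, the nearest pair by little. The paralog eif5a2 read 12.91, 12.60 and 13.68 in WT, 13.78, 13.13 and 12.39 in MZ, 11.97, 11.95 and 13.01 in MZ_Pou5f1, 12.51, 12.38 and 11.92 in WT_Sox2, and 12.54, 13.78, 12.56 and 12.56 in MZ_Sox2. WT_Sox2 lay below WT, and the MZ and MZ_Pou5f1 samples overlapped. The second eif5a2 probe had the opposite sign for WT_Sox2 against WT, 0.91 where the brightest gave -0.80.

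Among elongation factors the delta subunits of eEF1B had the clearest order between MZ and WT. The gene eef1db read 9.61, 9.61 and 9.30 in WT, 10.54, 10.35 and 10.37 in MZ, 10.02, 10.52 and 9.46 in MZ_Pou5f1, 10.23, 9.90 and 10.44 in WT_Sox2, and 10.02, 10.42, 10.55 and 10.63 in MZ_Sox2. All MZ, WT_Sox2 and MZ_Sox2 samples lay above all WT samples. The difference of MZ from WT was 0.96 (SE 0.28, unadjusted p = 0.00456, adjusted p = 0.31, limma), and it was 0.76 within slide 1 and 0.99 within slide 2.

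Its paralog eef1da, named here after its values were seen, also had MZ above WT, but its WT_Sox2 and MZ_Sox2 samples overlapped WT. It read 12.83, 12.65 and 13.73 in WT and 13.98, 14.55 and 14.09 in MZ, without overlap, a difference of 1.22 (SE 0.40, adjusted p = 0.324, limma). All 5 of its probes were positive in this contrast, from 0.87 to 1.61. The value 0.87 came from a dim probe with a mean log2 intensity of 3.50, so that difference is imprecise. Within slides 1 and 2 the difference of the brightest probe was 1.26 and 1.08. The 5 probes belong to 1 gene and were read on the same arrays, so they are not independent.

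The brightly read eEF1A gene eef1a1l1 was at 15.85, 15.66 and 15.87 in WT, 15.14, 15.43 and 15.29 in MZ, 14.53, 15.37 and 16.63 in MZ_Pou5f1, 16.95, 16.82 and 14.51 in WT_Sox2, and 14.79, 16.20, 15.46 and 16.11 in MZ_Sox2. MZ lay below WT without overlap, while the MZ_Pou5f1 and WT_Sox2 samples each spanned over 2 log2 units. The difference of MZ from WT was -0.29 after the dye term, and near-identical eEF1A paralogs may not be told apart by these probes. The related eef1a1l3 read 9.29, 9.33 and 8.97 in WT, 8.15, 7.84 and 8.16 in WT_Sox2, and 9.79, 8.99, 8.74 and 8.91 in MZ_Sox2. WT_Sox2 was below both without overlap, by -1.15 from WT (SE 0.34, adjusted p = 0.168), and MZ_Sox2 was higher than it by 1.08 (SE 0.32, adjusted p = 0.44, limma).

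Other eEF1A genes were dimmer. The gene eef1a1a stayed between 2.83 and 3.22 in all 16 samples and exceeded the dark control in 5. The gene eef1a1b exceeded it in 11 samples and read 4.36, 2.78 and 3.47 in WT, 3.64, 2.84 and 6.28 in MZ, and 4.35, 7.87, 4.64 and 4.59 in MZ_Sox2. The gene eef1a2, whose mammalian counterpart serves muscle and neurons, read 7.72, 7.64 and 5.80 in WT, 6.34, 5.74 and 7.30 in MZ, 6.46, 7.68 and 7.80 in MZ_Pou5f1, 6.84, 6.84 and 7.72 in WT_Sox2, and 8.05, 8.16, 8.11 and 5.93 in MZ_Sox2. It exceeded the dark control in all samples but MZ replicate 1. No group stood apart, and MZ_Sox2 replicate 4 was low beside the rest of its group.

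The translocase gene eef2b read 15.66, 16.06 and 14.93 in WT, 16.22, 16.76 and 15.81 in MZ, 16.46, 16.16 and 15.40 in MZ_Pou5f1, 15.99, 15.39 and 16.46 in WT_Sox2, and 16.11, 16.69, 15.98 and 15.89 in MZ_Sox2. All groups overlapped, and 1 of its 3 probes had the opposite sign in MZ against WT (-0.71 beside 0.63 and 0.40). The gene eef1g, for the gamma subunit of eEF1B, read 15.56, 15.87 and 15.56 in MZ and 15.20, 15.29, 15.24 and 15.31 in MZ_Sox2. These groups did not overlap, with a difference of -0.52 (SE 0.23, adjusted p = 0.77, limma), and the second eef1g probe gave 0.17. Over the 13 elongation genes, 6 were positive in MZ against WT, 5 in MZ_Pou5f1 against MZ and 7 in WT_Sox2 against WT.

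The eEF2 kinase halts elongation by phosphorylating eEF2. Its gene eef2k read 6.02, 5.48 and 6.57 in WT, 5.74, 5.62 and 5.71 in MZ, 6.08, 5.68 and 4.62 in MZ_Pou5f1, 6.37, 4.83 and 5.88 in WT_Sox2, and 4.42, 5.38, 5.62 and 5.17 in MZ_Sox2. WT spanned all 3 MZ values. Every MZ_Sox2 sample lay below every MZ sample, but the nearest pair read 5.615 and 5.620, and all other pairs of groups overlapped. MZ replicate 1 was below its dark control. The gene eef1akmt1 encodes a methyltransferase for a lysine of eEF1A. It read 11.03, 10.88 and 11.63 in WT, 11.16, 10.55 and 10.43 in MZ, 10.23, 10.28 and 10.88 in MZ_Pou5f1, 9.94, 10.14 and 10.31 in WT_Sox2, and 10.74, 9.97, 10.12 and 9.82 in MZ_Sox2. WT_Sox2 lay below WT without overlap by -1.05 (SE 0.29, adjusted p = 0.149), and MZ_Pou5f1, also below WT, differed by -0.82 (SE 0.30, adjusted p = 0.67, limma).

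Counts of calls were larger without the library least like its own group in each labelled group. Those 5 libraries were WT replicate 3, MZ replicate 3, MZ_Pou5f1 replicate 3, WT_Sox2 replicate 3 and MZ_Sox2 replicate 1, found by their correlation with their own group over bright probes. The choice was made after seeing the data, and leaving out the sample farthest from its group narrows the spread by construction, so the calls below are a description. In MZ against WT, 13 of the 63 members then passed, 9 higher and 4 lower, which is 20.6% beside 16.4% of all probes. Of the 3516 probes called, 1355 were higher and 2161 lower. MZ then held only replicates 1 and 2, both on slide 2 and with raised dark controls. WT held only replicate 1, on slide 1, and replicate 2, on slide 2. Higher in MZ were eef1da, eef1db, eef2kmt, eif2ak3, eif2s2, eif3ea, eif3f, eif4ba and eif4bb, and lower were eif2s3, eif4a3, eif4ea and eif4g2b. Genes in these lists that are not described above were named after their values were seen. Among these, eif3f differed by 2.23 (SE 0.30, adjusted p = 0.0106) and eif2s3, for the GTP-binding subunit of eIF2, by -1.88 (SE 0.32, adjusted p = 0.0164, limma).

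In the same 11 samples 5 members passed in MZ_Pou5f1 against MZ, or 7.94% beside 8.23% of all probes. The genes eif4a3, eif4g2b and eif2s1b were higher and eif4bb and eef2kmt lower. The MZ samples enter both comparisons. Here they were on slide 2 and the MZ_Pou5f1 samples on slide 1, so slide and group cannot be told apart. In WT_Sox2 against WT 6 members passed, or 9.52% beside 2.74%. The genes eef2kmt, eif3ea and eif3f were higher and eef1a1l3, eif4a1a and eif5b lower, with eif5b at -1.95 (SE 0.33, adjusted p = 0.041, limma). None passed in MZ_Sox2 against MZ (0.149% of all probes), MZ_Sox2 against WT_Sox2 (1.1%), MZ_Pou5f1 against WT (0.279%) or MZ_Pou5f1 against MZ_Sox2 (0.0093%). The Sox2 effect differed between MZ and WT for 4 members (7.03% of all probes): it was more positive in MZ for eef1a1l3 and more negative for eef2kmt, eif3ea and eif3f. In these 11 samples MZ_Sox2 was only on slide 4, WT_Sox2 only on slide 3 and MZ only on slide 2. Slide and this difference between the Sox2 effects cannot be told apart here. Dye was also uneven, with MZ all Cy5 and both Sox2 groups all Cy3. The F test called 6 members, or 9.52% beside 8% of all probes.

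Genes that act on or beside the factors gave 1 call in all 16 samples. It was rps6ka1, which encodes an RSK kinase of the MAPK pathway. It read 9.21, 9.05 and 9.58 in WT and 7.38, 7.52 and 8.10 in WT_Sox2, without overlap, a difference of -1.61 (SE 0.26, adjusted p = 0.0493, limma). No probe of the array passed in this contrast with slide as a random block. In MZ it read 8.53, 8.86 and 8.59, also below WT, by -0.69 (SE 0.27, adjusted p = 0.36, limma). Over the 8 measured genes of mTOR and MAPK signalling, 5 were negative in MZ against WT and 6 in WT_Sox2 against WT. The kinase gene akt2 had the second largest statistic of that list in MZ against WT, at 0.53 (SE 0.22, adjusted p = 0.381, limma), and the eIF4E kinase gene mknk2b differed by -1.14 (SE 0.54, adjusted p = 0.412, limma) in MZ_Pou5f1 against MZ.

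Phosphorylated eIF2alpha lowers general initiation and raises translation of ATF4, the transcription factor of the integrated stress response. The gene atf4a read 14.71, 14.98 and 15.56 in WT, 12.61, 13.29 and 13.85 in MZ, 12.34, 12.83 and 14.88 in MZ_Pou5f1, 11.63, 11.29 and 12.32 in WT_Sox2, and 12.55, 13.61, 13.42 and 13.86 in MZ_Sox2. All WT samples lay above all MZ, WT_Sox2 and MZ_Sox2 samples. The difference was -3.34 (SE 0.60, adjusted p = 0.0611) in WT_Sox2 against WT and -1.76 (SE 0.60, adjusted p = 0.335) in MZ against WT (limma), neither past the threshold.

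The asparagine synthetase gene asns, an ATF4 target, read 8.20, 8.23 and 4.01 in WT, 3.44, 5.59 and 3.77 in MZ and 4.61, 2.78 and 8.11 in MZ_Pou5f1. WT replicate 3 was low with the MZ samples and MZ_Pou5f1 replicate 3 was high with WT replicates 1 and 2. In WT replicate 3, MZ replicate 1 and MZ_Pou5f1 replicate 2 asns read below the dark control of its own channel, so these values are bounds. For cebpb and trib3, 2 further targets, MZ_Pou5f1 differed from MZ by -3.39 (SE 1.45) and -1.22 (SE 0.53), each with an adjusted p of 0.409 (limma). None of the 7 measured genes of the response passed in any contrast, and 3 had positive differences in MZ against WT.

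Aminoacyl-tRNA synthetases charge the tRNAs that eEF1A carries. Their list had 20 measured genes, among them aimp1a and aimp2, which are partners of the synthetases and not synthetases themselves. In MZ against WT 6 were positive and 14 negative, in MZ_Pou5f1 against WT 15 and 5, and in MZ_Sox2 against WT_Sox2 4 and 16. Of all probes 47.4%, 47.4% and 49.6% were positive in the same order. The median in the last contrast was -0.30 beside 0 over all probes. None passed in any contrast. The tyrosine enzyme gene yars1 read 13.02, 13.17 and 12.23 in WT, 11.33, 11.34 and 12.52 in MZ, and 12.51, 13.17 and 12.89 in MZ_Pou5f1. MZ replicates 1 and 2 were low and replicate 3 lay within the WT range. It differed by -1.05 (SE 0.36, adjusted p = 0.339) in MZ against WT and by 1.13 (SE 0.36, adjusted p = 0.409) in MZ_Pou5f1 against MZ (limma). The tryptophan enzyme gene wars1 differed by 1.34 (SE 0.53, adjusted p = 0.365) in MZ against WT, and aars1, for alanine, by 0.94 (SE 0.31, adjusted p = 0.409) in MZ_Pou5f1 against MZ (limma).

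Of 8 poly(A)-binding and mRNA regulator genes, 5 were positive in MZ against WT and 3 in MZ_Pou5f1 against MZ. The poly(A)-binding protein gene pabpc1b read 9.89, 10.18 and 9.40 in MZ and 8.22, 8.71 and 9.45 in MZ_Pou5f1, overlapping through the third samples, a difference of -1.03 (SE 0.41, adjusted p = 0.409, limma). The mRNA-binding gene ybx1 differed by -0.80 (SE 0.49, adjusted p = 0.456, limma) there, while paip2b and mcts1 differed by 0.77 (SE 0.64) and 0.58 (SE 0.53) in MZ against WT. Of 4 termination and recycling genes, the release factor genes etf1b and gspt1 differed by -0.54 (SE 0.45) and -0.77 (SE 0.70) in MZ against WT. In MZ_Pou5f1 against MZ gspt1 differed by 1.40 (SE 0.70) and the ribosome rescue gene pelo by -0.83 (SE 0.48), and none of these passed.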

How the data were processed

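Whole-embryo RNA from 16 samples in 5 labelled groups was analysed. The deposited values are intensity values per probe on a linear scale. Agilent Feature Extraction produced them from the scans, per the submitters' processing notes. Channels were separated by dye, quantile normalised and compared independently by the authors, per the series design text. The background correction and software version are not given in the sources used here. Sorted values were identical in 14 columns, and the other 2 (MZ_Sox2 replicate 4 and MZ_Pou5f1 replicate 2) were mapped by rank onto that distribution. The deposited intensity was then taken to log2, and 60 of 21555 features, all controls, were left out. Arrays give no read depth, and their number limits the precision.

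Gene symbols came from the platform annotation, which gave 12887 probes 1 symbol and 8608 none, and all 63 members were found in the RefSeq gene table of assembly GRCz12tu. Of the members, 28 had several probes. Their 34 other probes had the sign of the brightest in 25 cases for MZ against WT and 19 for MZ_Pou5f1 against MZ. The number was 23 for MZ_Sox2 against MZ, 20 for WT_Sox2 against WT and 22 for MZ_Sox2 against WT_Sox2. It was 19 for MZ_Pou5f1 against WT, 20 for MZ_Pou5f1 against MZ_Sox2 and 18 for the difference between the Sox2 effects. Signs of members therefore depend in part on the probe read. One limma 3.58.1 fit in R 4.3.3 covered all samples, with a mean per group, dye as covariate and array as random block (3 arrays held 2 of the samples each, consensus correlation 0.04286, 10 residual and 2.309 prior degrees of freedom). Each of those arrays paired a WT with an MZ sample. The pairs were WT replicate 1 with MZ replicate 3, WT replicate 2 with MZ replicate 1, and WT replicate 3 with MZ replicate 2. Tests were two-sided, adjusted by Benjamini-Hochberg over 21495 probes, threshold 0.05. The series design text calls the replicates biological. Slides are numbered 1 to 4 here.

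Members were named by rule, 38 genes in all. The rule took the brightest members of each role list, the 8 largest F statistics and the extreme statistics of each contrast. It also took a list of eIF4E, 4E-binding, eIF2alpha kinase, eEF1A, eEF2, eEF2 kinase and eIF5A genes. For some of these genes values are given for only part of the groups. Genes of the other lists (termination, poly(A) binding, mTOR and MAPK signalling, aminoacyl-tRNA synthetases, integrated stress response) were named where they passed the threshold, and otherwise by the 2 largest statistics in MZ against WT and in MZ_Pou5f1 against MZ. The members and lists were chosen with earlier results of these data known.

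Simulated data checked the fit (MZ against WT, 21495 probes): of 50 probes each changed by 1, 2, 4 and 6 on the log2 scale it recovered 8%, 40%, 86% and 98%, with 8 calls among the unchanged probes. The simulated noise was independent and normal, without array, slide or background effects, so these rates need not hold in the real data. Alternatives covered dye, array, slide and replicate terms, the deposited values, dim probes, the samples in the fit, empirical Bayes options, averaged probes and each sample left out. Figures used Python 3.11.15 with matplotlib 3.10.9.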

Additional observations from a re-analysis of the deposited data

Results flagged for a closer look

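In the MZ_Sox2 group, the only group of 4, 1 sample lay far from the other 3 for 6 of the 38 named genes by Dixon's criterion, which chance alone flags in about 1 of 20 such groups. The initiation factor gene eif5b read 15.73 in replicate 1 against 14.27 to 14.44 in the others. Replicate 2 stood apart for eif5a2, at 13.78 against 12.54 to 12.56, for eif1axa, at 13.28 against 14.37 to 14.48, and for the dim gene eef1a1b, at 7.87 against 4.35 to 4.64. The gene eef1a2 read 5.93 in replicate 4 against 8.05 to 8.16, and eif3c read 13.56 in replicate 3 against 13.79 to 13.83. All are log2 intensities.

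A sign rule was applied to the 38 named genes only. In 3 of them every Sox2-injected MZ sample lay on one side of the MZ mean. Every Sox2-injected wild type sample lay on the other side of the WT mean. Some of the 38 were named for extreme statistics in these data, eif3hb for this very difference and eif3f for a contrast with the same MZ samples. The share over all probes was not counted, so these flags are only a description. Group means moved by -0.87 in MZ and 0.92 in WT for eif3f, a difference of -1.78, by -1.11 and 1.38 for eif3hb, a difference of -2.50 that is not a measured size because the gene exceeded the dark control in 11 of 16 samples, and by -0.38 and 0.10 for eif4e1b, a difference of -0.48. In the limma fit with the dye term the same differences were -1.89 (SE 0.71, adjusted p = 0.484), -2.63 (SE 0.81, adjusted p = 0.42) and -0.49 (SE 0.28, adjusted p = 0.625), so none passed the threshold.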

How the results depend on the processing

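Over 63 translation factor genes, none was called under any alternative that kept all 16 samples, so the calls on members changed only where libraries were left out. Among all probes, no dye covariate gave 2 calls in MZ_Sox2 against WT_Sox2, 2 in the F test and an interaction median of -0.10 over the members. Slide as a random block gave 0 in WT_Sox2 against WT and 0 in MZ_Sox2 against WT_Sox2. Slide as a fixed block gave 0 in MZ against WT, 85 in MZ_Sox2 against WT_Sox2, 54 in the interaction and a members' median of 0.07 in MZ_Pou5f1 against WT. Filtering dim probes gave 0 in MZ against WT and in both contrasts with WT_Sox2. Fitting only the groups compared gave 0 in those 3, 22 in MZ_Pou5f1 against MZ and 2 in the interaction. Empirical Bayes with trend and robust options gave 0 in MZ against WT, 1 in MZ_Sox2 against MZ, 10 in MZ_Sox2 against WT_Sox2 and 2 in the F test. Values as deposited gave 0 in MZ against WT, 0 in WT_Sox2 against WT and 2 in MZ_Sox2 against WT_Sox2. They moved the members' medians to 0.08 (MZ against WT), 0.13 (MZ_Pou5f1 and MZ_Sox2 against MZ), 0.19 (MZ_Sox2 against WT_Sox2), 0.32 (MZ_Pou5f1 against WT) and -0.08 (interaction). Averaging all probes of a gene gave medians of 0.14 (WT_Sox2 against WT) and -0.05 (interaction), and eif4ebp1 reversed to -0.04 in MZ_Pou5f1 against MZ_Sox2. The cause of these shifts was not tested.

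Without the 5 libraries least like their groups, an alternative chosen after seeing the data, the members called were 13 in MZ against WT, 5 in MZ_Pou5f1 against MZ, 6 in WT_Sox2 against WT, 4 in the interaction and 6 in the F test. Probes called were 3516, 1769, 589, 1511 and 1720 in the same order, and 32 in MZ_Sox2 against MZ, 237 in MZ_Sox2 against WT_Sox2, 60 in MZ_Pou5f1 against WT and 2 in MZ_Pou5f1 against MZ_Sox2. Medians were 0.17 (MZ_Sox2 against MZ), 0.10 (WT_Sox2 against WT), 0.27 (MZ_Pou5f1 against WT) and -0.03 (interaction), and eif4ebp1 was at 0 in MZ_Pou5f1 against MZ_Sox2.

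Leaving out 1 sample at a time gave 0 to 4 members called in MZ against WT (4 without WT replicate 2: eef1da, eef1db, eif3ha and eif3i) and 0 to 1 in MZ_Pou5f1 against MZ (eif3f, without MZ replicate 3). Of all 21495 probes, the same fits called 1431 and 958 in those contrasts. Each fit estimated the array correlation anew. It was 0.646 without WT replicate 2 and -0.169 without MZ replicate 3, beside 0.0429 in the main fit. Probes called ranged from 0 to 1431 in MZ against WT, 0 to 958 in MZ_Pou5f1 against MZ, 0 to 8 in MZ_Sox2 against MZ, 0 to 190 in WT_Sox2 against WT, 0 to 97 in MZ_Sox2 against WT_Sox2, 0 to 5 in MZ_Pou5f1 against WT, 0 to 22 in the interaction and 0 to 58 in the F test. In the same order as far as the interaction, the members' medians ranged from -0.05 to 0.13, -0.05 to 0.05, -0.19 to 0.03, 0.09 to 0.27, -0.10 to 0.02, 0.03 to 0.26 and -0.33 to 0.04. With the array correlation kept, added after seeing the data, no member was called. Probes then ranged from 0 to 16 in MZ against WT and 0 to 491 in MZ_Pou5f1 against MZ, both highest without MZ replicate 3, with 12 and 7 next, without MZ replicate 2. Without WT replicate 2 the kept correlation gave 4 probes in MZ against WT.

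Replicate numbers were not taken to pair the samples, since in no pair of groups did all same-numbered samples deviate together with a correlation over 0.1. The correlations ran from -0.67 to -0.45 for WT with MZ and from 0.09 to 0.30 for MZ with WT_Sox2. The replicate block gave 3 probes in MZ against WT and 0 in WT_Sox2 against WT and in MZ_Sox2 against WT_Sox2, and called no member. Members near the dark control have imprecise differences.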
